A study of Mus musculus with 12 samples.

Results

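Neuropeptides and acetylcholine released by nerves and other cells act on group 2 innate lymphoid cells (ILC2s) through receptors whose genes are described here in lung ILC2s: *Nmur1*, *Calcrl*, *Ramp1*, *Ramp3*, *Vipr1*, *Vipr2*, *Chrna7* and *Chrnb1*. They were chosen by name as receptor genes for neuropeptides and acetylcholine, with earlier results of these data known. All 8 are among the 24346 gene symbols measured in each library. The data are RNA-seq of lung ILC2s in 12 libraries, with 4 groups of 3. WT and *Sema6d*-/- mice (called 6DKO in the labels) received either PBS or recombinant mouse IL-33 intranasally for 3 days. Both were on the C57BL/6 strain, given as C57BL/6J in the study's methods. The labels give the IL-33 dose as 50 ng, whereas the study's methods give a different one, and they list SMART-Seq HT with Nextera as library kits, whereas the methods list TruSeq Stranded. The 4 groups are thus WT PBS, *Sema6d*-/- PBS, WT IL-33 and *Sema6d*-/- IL-33, and the labels give no age. *Sema6d* was knocked out in the whole animal, not in ILC2s alone. The labels do not say that replicates are separate mice, so p-values measure the spread between these samples, which may be technical.

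Neuromedin U is a peptide of sensory and cholinergic neurons, and its receptor NMUR1, coupled to Gq, triggers rapid cytokine release by ILC2s. Calcitonin gene-related peptide (CGRP) binds a receptor made of CALCRL, a G protein-coupled receptor, and the single-pass protein RAMP1, while CALCRL with RAMP3 binds adrenomedullin, and both raise cyclic AMP. VPAC1 and VPAC2, encoded by *Vipr1* and *Vipr2*, bind vasoactive intestinal peptide and also raise cyclic AMP, whereas *Chrna7* and *Chrnb1* encode subunits of nicotinic acetylcholine receptors, which are ion channels.

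Values are FPKM, reads scaled for gene length and library size by the authors, and genes were compared on the scale of log2(FPKM + 1) with limma. An adjusted p is the Benjamini-Hochberg value over all 11463 genes tested, and called means an adjusted p under 0.05. FPKM files hold no read totals, so the relative depth of the libraries was estimated from weakly expressed genes, with WT IL-33 replicate 3 set to 1. It was 0.739 to 0.998 in the PBS and 0.968 to 1.39 in the IL-33 libraries, a 1.88-fold range. The PBS libraries were also more variable. Over all genes tested, the median SD of log2(FPKM + 1) was 0.65 (WT) and 0.70 (*Sema6d*-/-) in the PBS groups, against 0.29 and 0.28 in the IL-33 groups. The model shares a single estimate of the spread between groups, and on simulated data whose spread differed between groups its false calls exceeded the nominal share.

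Transcript of the deleted gene, *Sema6d*, was present in every library. *Sema6d*-/- libraries had 29.0, 22.9 and 19.8 FPKM of it under PBS and 15.4, 13.6 and 13.8 FPKM under IL-33, and WT libraries 27.5, 46.1 and 37.5 FPKM under PBS and 19.7, 35.5 and 28.7 FPKM under IL-33. Its level was lower in each *Sema6d*-/- than in each WT library under IL-33 (exact permutation p = 0.10, two-sided, the least possible with 3 against 3), whereas the PBS groups overlapped (exact permutation p = 0.20). The *Sema6d* difference between the genotypes was not called with limma. On the log2(FPKM + 1) scale it was −0.89 under IL-33 (unadjusted p = 0.0146, limma) and −0.60 under PBS (unadjusted p = 0.079, limma). Over both treatments it was −0.74 (unadjusted p = 0.00569, limma). A gene's FPKM does not show which exons its reads come from.

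All 13 ILC2 markers were above 0 in every library, and *Id2* was the most abundant of them in 11 of 12 libraries. Their summed level was 5892 to 9369 FPKM. The 7 T cell markers summed to 189.7 to 483 FPKM, nearly all of it *Cd3g*, while *Cd3e* was at 9.81 FPKM at most, and the 5 B cell markers summed to 26.9 FPKM or less. Mesenchymal markers summed to 0.540 FPKM or less in 11 libraries and to 4.51 FPKM in the other.

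One library stood apart. *Sema6d*-/- PBS replicate 2 had the highest summed level of NK cell, epithelial, granulocyte, endothelial, mast cell and mesenchymal markers. Its NK cell markers summed to 1415 FPKM, all 6 of them above 1 FPKM and *Nkg7* the most abundant at 658 FPKM, against 147.5 FPKM at most in the other libraries. Its epithelial markers summed to 282.5 FPKM, with *Ager* at 199 FPKM, against 104.1 FPKM at most elsewhere. Its macrophage markers summed to 185.4 FPKM, with *Lyz2* at 112 FPKM. Among the IL-33 libraries, *Sema6d*-/- IL-33 replicates 2 and 3 had macrophage markers at 420.2 and 143.1 FPKM, mostly *Chil3*, while the other 4 IL-33 libraries had 10.3 FPKM or less. Changes of the receptors after IL-33 are therefore given with and without *Sema6d*-/- PBS replicate 2. Bulk libraries cannot tell fewer cells of a type from less RNA per cell.

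**Figure D1:**
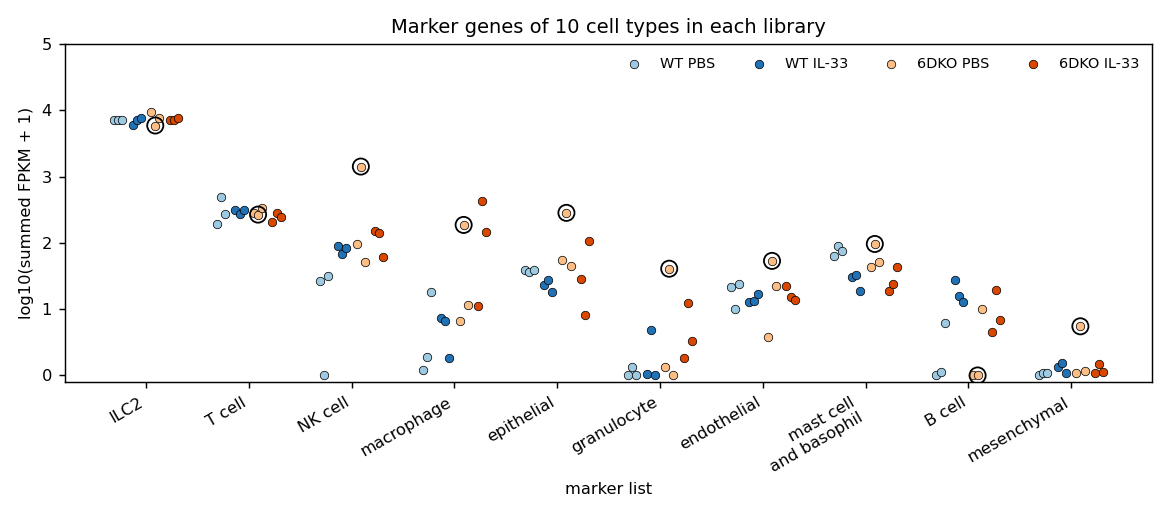
Summed FPKM of the marker genes of 10 cell types in each library, as log10(summed FPKM + 1), with 1 point per library colored by group and *Sema6d*-/- PBS replicate 2 circled. ILC2 markers are highest in all 12 libraries, and the circled library lies highest for NK cell markers, at 1415 FPKM.

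Of the 8 receptor genes, 6 had a mean of at least 0.5 FPKM over the 12 libraries. *Vipr1* was listed at 0 in 11 libraries and at 0.0538 FPKM in *Sema6d*-/- IL-33 replicate 2, and *Chrna7* was listed at 0 in all 12, so it could not be tested and 7 genes were. A gene listed at 0 in FPKM may be a failed estimate. In WT PBS libraries the order of the mean levels was *Ramp3* (464 FPKM), *Ramp1* (317 FPKM), *Nmur1* (116 FPKM), *Vipr2* (55.5 FPKM) and *Calcrl* (10.7 FPKM), with no overlap between neighbours, and *Chrnb1* was listed at 0. In *Sema6d*-/- PBS libraries *Ramp1* and *Ramp3* overlapped, as did *Nmur1* with *Vipr2* and *Vipr2* with *Calcrl*. Under IL-33 *Vipr2* stood above *Nmur1* in both genotypes without overlap, and *Ramp1* and *Ramp3*, the highest pair, overlapped in both.

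Between IL-33 and PBS, 1 of the 7 receptor genes was called in WT ILC2s (4.32% of all genes tested were), 1 in *Sema6d*-/- ILC2s (2.95%) and 1 over both genotypes (8.9%). It was *Nmur1* each time, and it was lower after IL-33. An unadjusted p under 0.05 was found for 4, 2 and 5 of the 7, beside 17.8%, 15.3% and 22.6% of all genes tested. In WT ILC2s 3 receptor genes had groups that did not overlap, *Nmur1*, *Ramp3* and *Chrnb1* (25.0% of all genes tested), and in *Sema6d*-/- ILC2s and over both genotypes *Nmur1* alone (22.6% and 6.42%). The median log2 fold change of the 7 genes was 0.00 in WT and 0.03 in *Sema6d*-/- ILC2s, beside 0.16 and 0.14 for all genes tested, and over both genotypes 0.01 beside 0.16. Each of these medians was the value of *Vipr1*, which was above 0 in 1 library only, so they do not describe the other 6 genes. *Calcrl*, *Vipr2* and *Chrnb1* had values above 0 and *Nmur1*, *Ramp1* and *Ramp3* below 0 in all 3 comparisons, from −1.78 to 1.34 in WT and from −1.73 to 1.24 in *Sema6d*-/- ILC2s. With quantile normalization the medians of all genes moved to −0.05, −0.02 and −0.03, and *Nmur1* was lower after IL-33 under that scaling too.

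*Nmur1* (chromosome 1, 86386303 to 86426228, minus strand, GRCm38) encodes the receptor of neuromedin U. The *Nmur1* values in PBS libraries were 149.7, 86.3 and 110.9 FPKM for WT and 132.4, 93.5 and 159.6 FPKM for *Sema6d*-/- mice. In IL-33 libraries they were 44.7, 26.8 and 27.3 FPKM for WT and 29.3, 42.6 and 40.7 FPKM for *Sema6d*-/- mice. Every PBS library was above every IL-33 library, in both genotypes. The mean after IL-33 was 28.5% of that under PBS in WT and 29.2% in *Sema6d*-/- ILC2s. In WT ILC2s its log2 fold change, here and later on the log2(FPKM + 1) scale, was −1.78 (standard error 0.30, adjusted p = 0.00706, limma), and in *Sema6d*-/- ILC2s −1.73 (standard error 0.30, adjusted p = 0.0110, limma). Over both genotypes it was −1.76 (standard error 0.21, adjusted p = 0.000395, limma), and the exact permutation p within genotypes was 0.005, the smallest that 400 assignments allow. When *Sema6d*-/- PBS replicate 2 was left out it was −1.94 for *Sema6d*-/- ILC2s (adjusted p = 0.00993, limma) and −1.86 for both genotypes (adjusted p = 0.000465, limma). The call in *Sema6d*-/- ILC2s was lost when *Sema6d*-/- IL-33 replicate 1 was left out (log2 fold change −1.57, adjusted p = 0.0565, limma; 0.00942 to 0.0565 over its alternatives). Its FPKM values were whole multiples of a single step in every library, within 0.02 of a read, and correspond to 226 to 1317 reads if the smallest step is a read. Reads counted after amplification are not independent molecules.

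The *Nmur1* response differed by 0.05 between the genotypes on the log2 scale (95% confidence interval −0.88 to 0.98, adjusted p = 0.991, limma). The study's methods describe a sort of CD45-positive, lineage-negative cells positive for Thy1.2 and ST2. Over both genotypes 8.9% of all genes tested were called after IL-33. Of 61 tested markers of cells other than ILC2s, 2 were called higher and 3 lower in that comparison (limma). These and the other single markers of other cells named here and for *Calcrl* were chosen after their values were seen. The macrophage gene *Cd68* (log2 fold change 1.13, adjusted p = 0.0353, limma) and the B cell gene *Cd79b* (2.94, adjusted p = 0.0134, limma) rose, and the endothelial gene *Plvap* fell (−2.06, adjusted p = 0.0230, limma). *Cd68* was at 1.16, 0 and 0 FPKM in WT and 4.87, 4.15 and 2.096 FPKM in *Sema6d*-/- IL-33 libraries and at 0.456 FPKM or less under PBS. The log2 fold change of *Cd68* was 2.08 for *Sema6d*-/- ILC2s, which was called (adjusted p = 0.0223, limma), and 0.19 for WT, which was not. Of the 10 macrophage markers *Cd68* alone was called over both genotypes (limma), and the others went both ways. In *Sema6d*-/- libraries *Mrc1* was at 0.0284, 6.84 and 2.16 FPKM under PBS and at 0 in all 3 under IL-33. *Chil3* was at 5.13, 51.1 and 0 FPKM under PBS and at 0, 393.9 and 83.1 FPKM under IL-33. *Cd79b* and *Cpa3* were called in WT alone, *Epcam* in *Sema6d*-/- ILC2s alone and *Plvap* in neither. Of all genes tested, 4.32% were called in WT and 2.95% in *Sema6d*-/- ILC2s. For the interaction 0 of the 61 markers were called (limma), with 2 at an unadjusted p under 0.05, beside 0.0174% and 5.63% of all genes tested. The mast cell protease *Cpa3* fell over both genotypes (log2 fold change −1.35, adjusted p = 0.00750, limma). The 6 mast cell and basophil markers, of which *Cpa3* was the most abundant and 3 to 5 were listed at 0 in each library, summed to 63.2, 88.6 and 73.3 FPKM in WT PBS, 42.9, 95.2 and 50.1 FPKM in *Sema6d*-/- PBS, 29.9, 32.0 and 17.8 FPKM in WT IL-33 and 17.9, 22.8 and 41.9 FPKM in *Sema6d*-/- IL-33 libraries. The epithelial adhesion gene *Epcam* also fell (log2 fold change −2.95, adjusted p = 0.00410, limma). The epithelial cadherin gene *Cdh1* was at 0, 0 and 6.78 FPKM in WT PBS, 0, 0 and 2.36 FPKM in *Sema6d*-/- PBS, 6.35, 5.31 and 5.32 FPKM in WT IL-33 and 4.0, 4.26 and 2.72 FPKM in *Sema6d*-/- IL-33 libraries, and was not called (log2 fold change 1.68, adjusted p = 0.0843, limma). The surfactant gene *Sftpc* was listed at 0 in all 6 PBS libraries and reached 97.2 FPKM in *Sema6d*-/- IL-33 replicate 3. *Epcam* was the most abundant of the 10 epithelial markers in 5 of the 6 PBS libraries, and 2 to 8 of the 10 were listed at 0 in a library. These summed to 38.3, 35.2 and 37.6 FPKM in WT PBS, 54.0, 282.5 and 44.3 FPKM in *Sema6d*-/- PBS, 22.3, 26.2 and 17.4 FPKM in WT IL-33 and 27.2, 7.08 and 104.1 FPKM in *Sema6d*-/- IL-33 libraries. The 6 NK cell markers summed to 25.42, 0 and 30.75 FPKM in WT PBS and 90.01, 67.13 and 84.1 FPKM in WT IL-33 libraries. These WT groups did not overlap. In *Sema6d*-/- libraries they summed to 96.7, 1415 and 50.39 FPKM under PBS and 147.5, 141.0 and 61.15 FPKM under IL-33, with overlap. *Nkg7* was not called in WT ILC2s (log2 fold change 3.73, adjusted p = 0.0826, limma). The part of these markers of other cells in the fall of *Nmur1* was not tested. The 3 tested genes most like *Nmur1* over the 12 libraries, by Pearson's r on the log2(FPKM + 1) scale, were *Cebpb* (0.96), *Ier2* (0.95) and *Gimap3* (0.95).

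**Figure D2:**
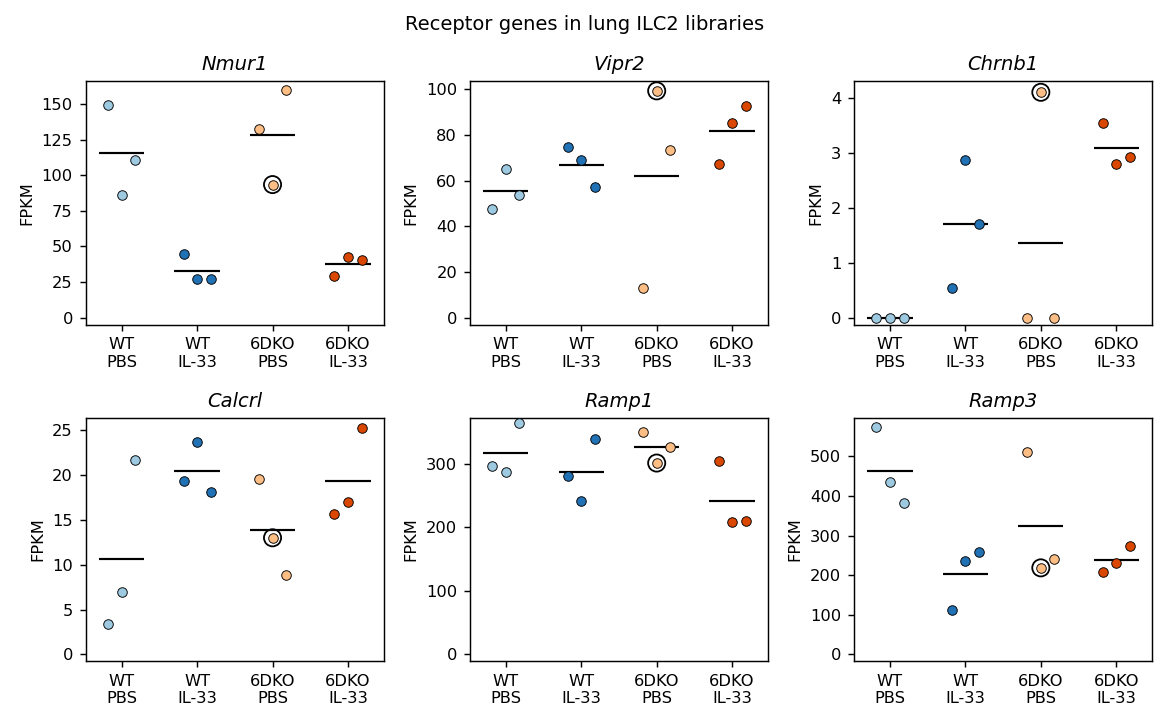
FPKM of 6 receptor genes in each library (points) with the group mean (line), by genotype and treatment, with *Sema6d*-/- PBS replicate 2 circled. *Nmur1* lies at 86.3 to 159.6 FPKM in the 6 PBS libraries and at 26.8 to 44.7 FPKM in the 6 IL-33 libraries.

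The 2 RefSeq promoters of *Nmur1*, each 300 bases on the minus strand of chromosome 1 in GRCm38.p6, are shown because it was the called receptor gene. Capitals mark matches on either strand to GATAA, a motif of GATA factors, chosen after the data were seen. The upstream one of the pair lies at chr1:86389312-86389611 and holds 0 matches, and the other lies at chr1:86388092-86388391 and holds 1. Of all 32851 promoters of this length, 25.4% hold GATAA. The cyclic AMP response motif TGACGTCA and the shorter TGACG, which lies within it, were also searched on both strands and had 0 matches in either *Nmur1* promoter, while 1.79% and 20.8% of all promoters hold them. GENCODE also gives *Nmur1* starts farther upstream, the farthest at 86426228, whose promoters are not shown here. The data do not show which start these cells use.
*Nmur1* upstream RefSeq start: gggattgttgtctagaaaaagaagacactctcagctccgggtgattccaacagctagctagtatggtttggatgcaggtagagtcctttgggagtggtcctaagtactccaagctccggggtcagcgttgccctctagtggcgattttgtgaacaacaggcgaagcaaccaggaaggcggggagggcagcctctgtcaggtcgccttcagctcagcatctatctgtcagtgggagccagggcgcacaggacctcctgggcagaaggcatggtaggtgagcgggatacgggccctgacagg
*Nmur1* downstream RefSeq start: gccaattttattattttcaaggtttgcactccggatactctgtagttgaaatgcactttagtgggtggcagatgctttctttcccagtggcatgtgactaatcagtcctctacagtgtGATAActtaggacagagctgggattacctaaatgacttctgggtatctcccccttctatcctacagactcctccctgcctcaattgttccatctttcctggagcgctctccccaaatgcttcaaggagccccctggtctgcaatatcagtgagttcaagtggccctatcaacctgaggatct

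*Calcrl* (chromosome 2, 84330626 to 84425411, minus strand, GRCm38) encodes the ligand-binding partner of both RAMPs. The *Calcrl* values in PBS libraries were 3.36, 6.95 and 21.7 FPKM for WT and 19.6, 13 and 8.89 FPKM for *Sema6d*-/- mice. After IL-33 they were 19.4, 23.7 and 18.2 FPKM for WT and 15.6, 17.0 and 25.3 FPKM for *Sema6d*-/- mice. The PBS libraries spread widely and the groups overlapped in both genotypes. Over both genotypes the change with IL-33 was 0.85 on the log2 scale (standard error 0.38, adjusted p = 0.218, limma), with an exact permutation p of 0.065. In WT ILC2s it was 1.21 (adjusted p = 0.275, limma), and without WT PBS replicate 3, the highest of its group, it was 1.85 and was called (adjusted p = 0.0390, limma; 0.0390 to 0.543 over its alternatives), whereas without WT PBS replicate 1, the lowest, it was 0.66 and was not called. In *Sema6d*-/- ILC2s it was 0.49 (adjusted p = 0.731, limma), and 0.48 without *Sema6d*-/- PBS replicate 2. Without WT PBS replicate 3 the value over both genotypes was 1.17 and was also called (adjusted p = 0.0330, limma; 0.0330 to 0.391 over its alternatives), and without *Sema6d*-/- PBS replicate 2 it was 0.84 (adjusted p = 0.246, limma). *Calcrl* is also expressed by endothelium. The study sorted CD45-positive cells, and how far that removed endothelium was not tested. The 10 endothelial markers, 4 to 9 of them listed at 0 in a library, summed to 20.6, 9.001 and 22.9 FPKM in WT PBS, 2.86, 52.5 and 21.2 FPKM in *Sema6d*-/- PBS, 11.8, 12.1 and 15.9 FPKM in WT IL-33 and 21.7, 14.2 and 12.8 FPKM in *Sema6d*-/- IL-33 libraries. *Pecam1*, the most abundant in 10 of 12 libraries, was at 0 to 20.4 FPKM, *Cdh5* at 0.226 FPKM at most and *Kdr* at 1.28 FPKM at most. *Egfl7* and *Cldn5* were highest in *Sema6d*-/- PBS replicate 2, at 21.2 and 12.7 FPKM. *Plvap* was at 5.58, 7.68 and 2.97 FPKM in WT PBS and 0, 8.1 and 3.59 FPKM in *Sema6d*-/- PBS libraries and at 0.698 FPKM or less in every IL-33 library, and it was called lower (log2 fold change −2.06, adjusted p = 0.0230, limma). Their part in the *Calcrl* values was not tested. The genes most like *Calcrl* were *Rasgrp2* (r = 0.95), *Gse1* (0.92) and *Snapc1* (0.92).

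*Ramp1* (chromosome 1, 91179822 to 91225196, plus strand, GRCm38) completes the CGRP receptor. The *Ramp1* values in PBS libraries were 297, 288 and 365 FPKM for WT and 350.0, 302 and 327 FPKM for *Sema6d*-/- mice. In IL-33 libraries they were 280.4, 242 and 339 FPKM for WT and 305, 208 and 210.0 FPKM for *Sema6d*-/- mice. It varied least of the receptor genes above 0 in every library, 1.75-fold between the highest and the lowest library, and the groups overlapped. Its change over both genotypes was −0.30 on the log2 scale (standard error 0.13, adjusted p = 0.203, limma), and without *Sema6d*-/- PBS replicate 2 it was −0.33 (adjusted p = 0.180, limma; 0.102 to 0.424 over its alternatives). In *Sema6d*-/- ILC2s it was −0.46 with all libraries (adjusted p = 0.269, limma) and −0.51 without that library, which was not called either. The genes most like *Ramp1* were *Adprhl2* (r = 0.80), *Epcam* (0.79) and *Lsm4* (0.78).

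*Ramp3* (chromosome 11, 6658521 to 6677475, plus strand, GRCm38) shares 101 of its 1380 exonic bases with *Gm11978* on the opposite strand, and whether reads there were assigned by strand is not known. The *Ramp3* values in PBS libraries were 574, 435 and 382 FPKM for WT and 509.8, 218 and 241 FPKM for *Sema6d*-/- mice. After IL-33 they were 113, 236 and 259 FPKM for WT and 207, 229.6 and 275 FPKM for *Sema6d*-/- mice. The WT groups did not overlap, and in *Sema6d*-/- ILC2s 2 of the 3 PBS libraries lay within the IL-33 range. In WT ILC2s the change was −1.26 on the log2 scale (standard error 0.36, adjusted p = 0.0773, limma; exact permutation p = 0.10), and in *Sema6d*-/- ILC2s it was −0.35 (standard error 0.36, adjusted p = 0.709, limma). The latter was −0.57 without *Sema6d*-/- PBS replicate 2 and turned to 0.038 without *Sema6d*-/- PBS replicate 1, and neither was called. The difference between these responses was 0.91 (95% confidence interval −0.20 to 2.02, adjusted p = 0.892, limma), 0.54 without WT IL-33 replicate 1 and 1.30 without *Sema6d*-/- PBS replicate 1. Over both genotypes the value was −0.80 (adjusted p = 0.0746, limma). Without *Sema6d*-/- PBS replicate 2 it was −0.92 and just passed (adjusted p = 0.0497, limma; 0.0497 to 0.206), and without *Sema6d*-/- PBS replicate 1 the WT value, still −1.26, was called (adjusted p = 0.0308, limma; 0.0308 to 0.263). Genes like *Ramp3* included *Gm13363* (r = 0.95) and *Btg1* (0.92).

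The FPKM ratio of *Ramp3* to *Ramp1* within a library was 1.93, 1.51 and 1.05 in WT PBS and 0.402, 0.975 and 0.763 in WT IL-33 libraries. It was above 1 in each WT PBS library and below 1 in each WT IL-33 library. In *Sema6d*-/- libraries it was 1.46, 0.724 and 0.735 under PBS and 0.677, 1.10 and 1.31 under IL-33, with overlap. *Ramp1* exceeded *Calcrl* 8.30-fold to 88.5-fold over all libraries.

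*Vipr2* (chromosome 12, 116077726 to 116146261, plus strand, GRCm38) encodes VPAC2. The *Vipr2* values in PBS libraries were 47.7, 65.1 and 53.7 FPKM for WT and 13.1, 99.4 and 73.4 FPKM for *Sema6d*-/- mice. In IL-33 libraries they were 74.7, 69.0 and 57.4 FPKM for WT and 67.4, 85.1 and 92.6 FPKM for *Sema6d*-/- mice. The *Sema6d*-/- PBS group held both the lowest and the highest of all libraries, and the highest was the library with markers of other cells. The change over both genotypes was 0.53 on the log2 scale (standard error 0.40, adjusted p = 0.479, limma), and without that library it was 0.81 (adjusted p = 0.193, limma; 0.193 to 0.762 over its alternatives). Without *Sema6d*-/- PBS replicate 1, the lowest, it was 0.098. In *Sema6d*-/- ILC2s it was 0.80 with all libraries, 1.34 without *Sema6d*-/- PBS replicate 2 (95% confidence interval 0.15 to 2.53) and −0.08 without *Sema6d*-/- PBS replicate 1, and none of these was called. *Vipr1* (chromosome 9, 121642716 to 121672954, plus strand, GRCm38), which encodes VPAC1, was above 0 in 1 library only. The genes most like *Vipr2* were *Rpa3* (r = 0.96), *Tmem165* (0.95) and *Cnpy3* (0.95).

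*Chrnb1* (chromosome 11, 69784036 to 69795943, minus strand, GRCm38) encodes the beta subunit of the muscle-type nicotinic receptor. In PBS libraries *Chrnb1* was listed at 0 in all 3 of WT mice and had 0, 4.10 and 0 FPKM in those of *Sema6d*-/- mice. After IL-33 the values were 0.543, 2.86 and 1.70 FPKM for WT and 3.55, 2.80 and 2.92 FPKM for *Sema6d*-/- mice. It was above 0 in all 6 IL-33 libraries and in 1 of 6 PBS libraries, *Sema6d*-/- PBS replicate 2, the library with markers of other cells. The whole steps correspond to 12 to 63 reads where it was above 0. With all libraries the fitted difference over both genotypes was 1.29 on the log2 scale (standard error 0.43, adjusted p = 0.0915, limma), with an exact permutation p of 0.02. With a pseudocount of 0.1 it was 3.55 and was called (adjusted p = 0.0395, limma), and with quantile normalization it was 0.73 and was not called. Without *Sema6d*-/- PBS replicate 2 it was 1.68 (standard error 0.29, adjusted p = 0.00481, limma; 0.00481 to 0.234 over its alternatives) and, for *Sema6d*-/- ILC2s alone, 2.03 (adjusted p = 0.0303, limma; 0.0303 to 0.631), so both were called. With that library left out every PBS value is 0, so these differences depend on the pseudocount and are not fold changes. PBS libraries listed many weakly expressed genes at 0. Of the 2076 genes with a mean of 1 to 4 FPKM under IL-33 that were above 0 in all 6 IL-33 libraries, 174 (8.38%) were listed at 0 in at least 5 of 6 PBS libraries. *Chrna7* (chromosome 7, 63098692 to 63212569, minus strand, GRCm38) encodes the subunit of the alpha 7 receptor. The genes most like *Chrnb1* were *3110052M02Rik* (r = 0.98), *Zdhhc23* (0.97) and *Rapsn* (0.97).

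**Figure D3:**
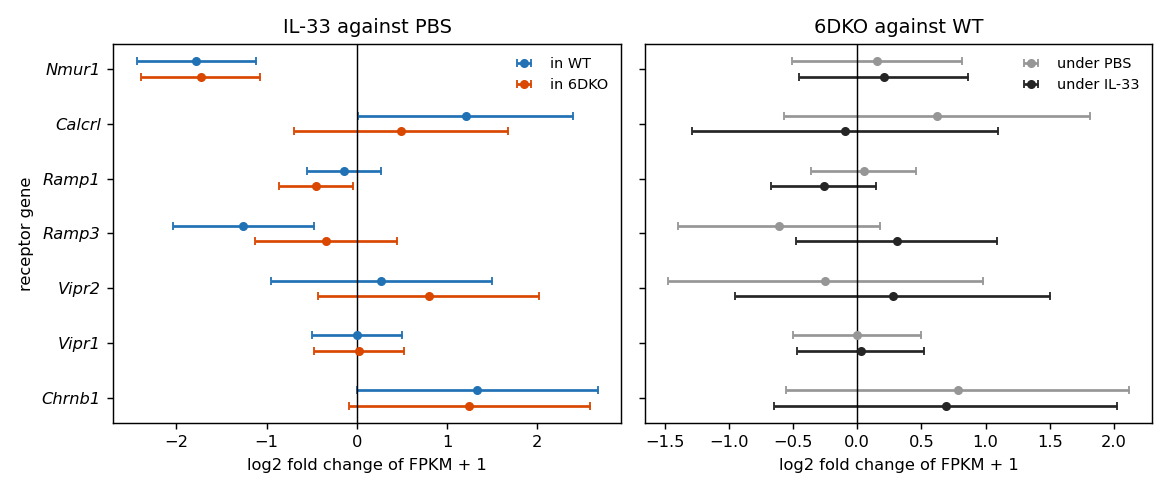
Log2 fold changes of FPKM + 1 with 95% confidence intervals from limma (n = 3 libraries per group) for the 7 receptor genes tested, after IL-33 in WT and *Sema6d*-/- ILC2s (left) and between the genotypes (right). The *Nmur1* intervals lie below 0 in both genotypes after IL-33, and every interval between the genotypes includes 0. The intervals use a single spread per gene over all groups, although the PBS groups were more variable than the IL-33 groups.

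Between *Sema6d*-/- and WT ILC2s no receptor gene was called (limma), and 0 had an unadjusted p under 0.05. This held under IL-33 (0.00872% of all genes tested were called and 1.89% had such an unadjusted p), under PBS (0.584% and 12.9%) and over both treatments (0.122% and 7.16%). It also held for the interaction of genotype and treatment (0.0174% and 5.63%). The deleted gene, *Sema6d*, was not called between the genotypes either (limma), so the lack of a call does not show equal levels. No receptor gene had genotypes that did not overlap under IL-33 (14.2% of all genes tested) or under PBS (8.58%). The interval of the difference under IL-33 was −0.45 to 0.86 for *Nmur1* and −0.67 to 0.15 for *Ramp1*. It was −0.48 to 1.09 for *Ramp3* and −0.95 to 1.504 for *Vipr2*. For *Calcrl* it was −1.29 to 1.09 and for *Chrnb1* −0.65 to 2.03. Without *Sema6d*-/- PBS replicate 2, 0 receptor genes were called between the genotypes or for the interaction (limma). Of all genes, 0.00882% were then called under IL-33, 1.27% under PBS, 0.309% over both treatments and 0.0264% for the interaction. The log2 differences under IL-33 do not involve that library and were unchanged. The intervals of *Nmur1*, *Calcrl*, *Ramp1*, *Ramp3*, *Vipr2* and *Chrnb1* all included 0. The difference under PBS was then −0.34 to 1.06 for *Nmur1*, −0.77 to 2.02 for *Calcrl* and −1.98 to 0.40 for *Vipr2*.

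The ligands of these receptors and the genes that act with them were read from lists. Over 10 lists of ligands, other receptors and signaling genes, 124 of 185 genes were tested. After IL-33, 1 rose and 1 fell in WT ILC2s, 2 rose in *Sema6d*-/- ILC2s, and 3 rose and 4 fell over both genotypes (limma), where 4.32%, 2.95% and 8.9% of all genes tested were called. Their median log2 fold change over both genotypes was 0.00, and −0.03 for the 94 with a mean of at least 0.5 FPKM, beside 0.16 for all genes tested. Between the genotypes 0 of 124 were called (limma), and an unadjusted p under 0.05 was found for 0 under IL-33, 13 under PBS and 7 over both treatments, beside 1.89%, 12.9% and 7.16% of all genes tested. For the interaction 0 were called (limma), and 6 had an unadjusted p under 0.05, beside 5.63% of all genes tested. *Nmu*, *Nms* and *Nmur2* of the neuromedin U list, and *Vip*, *Adcyap1* and *Adcyap1r1* of the VIP and PACAP list, were listed at 0 in all 12 libraries. Of the GPCR kinases and arrestins 7 of 9 were tested. After IL-33 over both genotypes 0 of these were called (limma), with 1 at an unadjusted p under 0.05, beside 8.9% and 22.6% of all genes.

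*Calca*, which encodes CGRP and calcitonin, was highly expressed. The *Calca* values in PBS libraries were 881, 698 and 577 FPKM for WT and 1139, 696 and 828 FPKM for *Sema6d*-/- mice. In IL-33 libraries they were 275, 591 and 397 FPKM for WT and 466, 396 and 602 FPKM for *Sema6d*-/- mice. It fell over both genotypes (log2 difference −0.84 ± 0.20 SE, adjusted p = 0.0233, limma), was called in neither genotype alone, and the call was lost in 8 of 20 alternatives. *Adm*, which encodes adrenomedullin, had a mean of 18.6 FPKM and *Ramp2* one of 2.12 FPKM, and neither was called.

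*Ache*, the acetylcholine-degrading enzyme, had 11.2, 19.1 and 3.79 FPKM in PBS and 0, 1.497 and 1.405 FPKM in IL-33 libraries of WT mice. In *Sema6d*-/- libraries it was at 15.3, 13.5 and 12.05 FPKM under PBS and at 1.91, 1.70 and 3.35 FPKM under IL-33. PBS and IL-33 libraries did not overlap in either genotype. Over both genotypes the change was −2.35 ± 0.42 SE on the log2 scale (adjusted p = 0.00488, limma), called in all 20 alternatives. The WT call (log2 fold change −2.54, adjusted p = 0.0354, limma) was lost in 13 of 21, and *Ache* was not called in *Sema6d*-/- ILC2s alone. *Chat*, the acetylcholine-synthesizing enzyme, had a mean of 0.00530 FPKM. Of 19 further cholinergic receptor genes, 9 were tested. After IL-33 over both genotypes 0 were called (limma) and 0 had an unadjusted p under 0.05, beside 8.9% and 22.6% of all genes. The highest was the muscle-type subunit *Chrna1*, with a mean of 5.05 FPKM. *Chrna1* was at 6.68, 9.39 and 5.73 FPKM in WT PBS, 5.29, 5.36 and 5.15 FPKM in *Sema6d*-/- PBS, 3.18, 3.81 and 2.97 FPKM in WT IL-33 and 4.73, 3.84 and 4.53 FPKM in *Sema6d*-/- IL-33 libraries. Every IL-33 library was below every PBS library (6.42% of all genes tested had no overlap over both genotypes). Its value was −0.92 in WT ILC2s, where it was the 1 of these 9 genes with an unadjusted p under 0.05 (adjusted p = 0.254, limma). It was −0.23 for *Sema6d*-/- ILC2s (adjusted p = 0.843, limma).

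Among the cyclic AMP genes, *Prkar2b*, a regulatory subunit of protein kinase A, had 0.158, 0 and 0 FPKM in PBS and 6.22, 4.87 and 6.44 FPKM in IL-33 libraries of WT mice. In *Sema6d*-/- libraries it was at 0, 0 and 0.194 FPKM under PBS and at 7.21, 6.41 and 6.64 FPKM under IL-33. The treatments were fully separated in both genotypes. Its rise on the log2 scale was 2.70 for WT (adjusted p = 0.00199, limma) and 2.87 for *Sema6d*-/- ILC2s (adjusted p = 0.00205, limma), and it was called in every alternative. *Pde4b*, which breaks down cyclic AMP, was called in *Sema6d*-/- ILC2s (log2 fold change 1.60, adjusted p = 0.0364, limma), a call lost in 11 of 21 alternatives, among them without *Sema6d*-/- PBS replicate 2, where the log2 fold change was 1.36 (95% confidence interval 0.54 to 2.19). *Gnas*, the Gs alpha subunit, and *Crem*, a cyclic AMP-responsive transcription factor, had means of 502.7 and 380.5 FPKM and were not called.

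On the Gq side, *Gna15*, a Gq-family alpha subunit, rose over both genotypes (by 1.26 ± 0.28 SE on the log2 scale, adjusted p = 0.0148, limma) and was called in all 20 alternatives. *Prkcq*, a protein kinase C, fell (log2 fold change −1.29, adjusted p = 0.0204, limma), as did the calcium sensor *Stim1* (log2 fold change −0.78, adjusted p = 0.0232, limma). The calls were lost in 3 and 5 of 20 alternatives. Outside the Gq list, the histamine receptor *Hrh2*, from the list of other receptors, was listed at 0 in all 6 PBS libraries. It was at 1.92, 1.62 and 0 FPKM in WT IL-33 and 2.51, 1.47 and 1.43 FPKM in *Sema6d*-/- IL-33 libraries. It was called over both genotypes (adjusted p = 0.0243, limma), a call lost in 5 of 20 alternatives. Without *Sema6d*-/- PBS replicate 2, all 7 list genes called over both genotypes were called again, and *Pde4c*, a phosphodiesterase of cyclic AMP chosen after its values were seen, was added (log2 fold change −1.06, adjusted p = 0.0435, limma; 0.0435 to 0.867 over its alternatives). That value averages 0.40 in WT ILC2s, which was not called, and −2.52 in *Sema6d*-/- ILC2s (adjusted p = 0.0131, limma; 0.0131 to 0.639 over its alternatives). The *Pde4c* values in PBS libraries were 0.111, 0 and 0.0923 FPKM for WT and 8.56, 0 and 5.66 FPKM for *Sema6d*-/- mice, the 0 of the latter being replicate 2. In IL-33 libraries they were 0.0588, 0.670 and 0.573 FPKM for WT and 1.17, 0.0423 and 0.194 FPKM for *Sema6d*-/- mice. Without that library 1 of 124 list genes was called between the genotypes under PBS (1.27% of all genes were), and it was *Pde4c*, higher in *Sema6d*-/- ILC2s by 2.90 on the log2 scale (adjusted p = 0.0134, limma; 0.0134 to 0.943 over its alternatives).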

How the data were processed

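The authors sequenced RNA of lung ILC2s and expressed it as FPKM, reads scaled for exon length and library size; the authors deposited FPKM for every gene symbol and library. The submitters' processing notes name TopHat2 2.1.1, Bowtie2, Cuffdiff 2.2.1 and the mm10 genome, and the study's methods name another TopHat version and Cuffnorm. The files hold no read totals. Groups were taken from the labels.

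The software was Python 3.11.15 with pandas 2.3.3, numpy 2.4.6 and matplotlib 3.10.9, and limma 3.58.1 under R 4.3.3. limma (lmFit, and eBayes with a trend) was fitted on log2(FPKM + 1) as 4 group means without covariates (8 residual degrees of freedom) for 11463 genes. A gene was kept if its mean reached 0.5 FPKM, or if it was on a list and above 0 in a library. The 7 contrasts were two-sided, with Benjamini-Hochberg adjustment. These fold changes understate the change of low genes. Single genes were also tested by two-sided exact permutation of log2(FPKM + 1), which for 3 libraries against 3 cannot go below p = 0.10. The fit was tested on simulated data. With a single spread per gene, false calls stayed near the nominal share, but with a spread that differed between groups, as it does in these libraries, they exceeded it.

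Relative depth came from genes under 3 FPKM in every library. Genes named are the 8 receptors, *Sema6d*, up to 6 called and 4 most abundant genes per list (others are marked as chosen after their values were seen), and the 3 genes most like each receptor with a mean of at least 1 FPKM. Members and lists were chosen with earlier results of these data known. Adrenergic receptor genes and 1 of the genes most like a receptor are not reported here. Positions are from GENCODE vM21 (GRCm38, called mm10) and promoters from RefSeq. The alternatives were a pseudocount of 0.1, a minimum mean of 2 FPKM, no filter, quantile normalization, median ratio scaling, eBayes without trend, array weights, a replicate block, fits restricted to the groups compared, and leaving out each library.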

Additional observations from a re-analysis of the deposited data

How the results depend on the processing

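Over 7 receptor genes and 7 contrasts, 920 of 999 alternative fold changes kept their direction and their side of the threshold, 1 lost its call, 7 gained one and 32 changed sign, none of the last being called. The other 39 had no direction to keep, being 0 with all libraries (38, *Vipr1*) or under the alternative (*Chrnb1* between the genotypes under PBS without *Sema6d*-/- PBS replicate 2), and were not called. Many of the 999 could not change a value. A difference of group means stays the same when a library outside the groups compared is left out. It also stays the same when only the filter, the trend, the replicate block or the set of groups fitted changes. In those alternatives only the adjusted p could move. With 1 library left out, *Nmur1* after IL-33 was at −2.02 to −1.58 for WT, −1.94 to −1.56 for *Sema6d*-/- and −1.88 to −1.66 for both genotypes.

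The number of receptor genes called after IL-33 was 1 to 2 in WT, 0 to 2 in *Sema6d*-/- ILC2s and 1 to 3 over both genotypes without 1 library, and 2 over both genotypes with a pseudocount of 0.1, where *Chrnb1* was added (log2 fold change 3.55) and 9.47% of all genes were called. The fits with 2 in WT, without WT PBS replicate 3 or *Sema6d*-/- PBS replicate 1, called 5.15% and 6.03% of all genes. In *Sema6d*-/- ILC2s, the fit with 2, without *Sema6d*-/- PBS replicate 2, called 4.03%, and that with 0, without *Sema6d*-/- IL-33 replicate 1, called 1.22%. Over both genotypes the fit with 2, without WT PBS replicate 3, called 10.3%, and that with 3, without *Sema6d*-/- PBS replicate 2, called 10.8%. It was 0 between the genotypes and for the interaction in every alternative.

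Sign changes were in values that were not called, and the cause was not tested. With quantile normalization *Vipr1* was at −0.23 in *Sema6d*-/- ILC2s and −0.25 over both genotypes after IL-33 and at −0.014 between the genotypes, and the *Chrnb1* interaction was 0.052. With array weights the PBS difference between the genotypes was −0.0092 for *Ramp1* and 0.11 for *Vipr2*. Without 1 library, the IL-33 response in *Sema6d*-/- ILC2s was −0.57 to 0.038 for *Ramp3* and −0.075 to 1.34 for *Vipr2*. The genotype difference under IL-33 was −0.30 to 0.033 for *Calcrl* and −0.070 to 0.53 for *Ramp3*. Under PBS it was −0.038 to 0.36 for *Nmur1*, −0.017 to 0.16 for *Ramp1* and −0.79 to 0.62 for *Vipr2*. Over both treatments it was −0.0096 to 0.59 for *Calcrl* and −0.26 to 0.45 for *Vipr2*. The interaction was −0.49 to 0.69 for *Chrnb1*, −0.16 to 0.29 for *Nmur1* and −0.35 to 1.07 for *Vipr2*.

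Same-numbered libraries share only a number: the correlations of their deviations from the group means were −0.047 to 0.045. With the replicate block, *Nmur1* stayed called, with values of −1.78 (WT) and −1.73 (*Sema6d*-/-), and the receptor genes called stayed at 1, 1 and 1 after IL-33 and 0 in the other contrasts.

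Counts over all genes moved more. After IL-33, 210 to 692 genes were called in WT (495 with all libraries), 131 to 457 in *Sema6d*-/- ILC2s (338) and 670 to 1223 over both genotypes (1020) without 1 library. In *Sema6d*-/- ILC2s 211 were called with array weights, 222 with the replicate block and 210 with only the groups compared. Between the genotypes under IL-33 the count of 1 became 58 with array weights, 12 with only the groups compared, 2 with a pseudocount of 0.1, 0 with quantile normalization and 0 to 3 without 1 library. Under PBS the count of 67 became 33 with no filter, 36 with quantile normalization, 1 with array weights or only the groups compared, 15 with the replicate block and 20 to 202 without 1 library. Over both treatments 14 became 9 with no filter and 7 to 44 without 1 library. The interaction gave 0 to 27 without 1 library, 5 with a pseudocount of 0.1, 7 without the trend and 1 with array weights or the block. With quantile normalization the share of higher calls after IL-33 was 51.5% in WT, 50.4% in *Sema6d*-/- ILC2s and 50.5% over both genotypes, against 62.6%, 61.5% and 65.4%.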
